A study of Mus musculus with 28 samples.

Results

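The alcohol diet was compared with chow in the non-tumor liver of mice whose hepatocytes lacked Il17ra. The comparison took every library labelled as non-tumor liver of that genotype, 7 of the 28 liver libraries of the series: 4 alcohol-fed mice and 3 mice fed chow. Both groups carried IL17RA flox/flox alleles with an AlbCre transgene (called dHEP here), and both had received diethylnitrosamine (DEN), a liver carcinogen, by intraperitoneal injection at 25 mg/kg when 2 weeks old. They were C57BL/6 mice fed for 18 weeks. The alcohol group was labelled HFD_alcohol, and the design text names the feed as an isocaloric liquid ethanol diet, so ethanol, fat content and liquid feeding cannot be told apart here. A matching set of 4 alcohol and 3 chow libraries came from IL17RA F/F mice without Cre (FF), with the same carcinogen and feeding.

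AlbCre places Cre recombinase under the albumin promoter, so that recombination is directed to hepatocytes. Whether all other liver cells kept their floxed alleles was not measured. IL17RA is the receptor chain through which cells sense interleukin-17A and interleukin-17F. The libraries are bulk RNA, in which fewer cells of a type and less RNA per cell cannot be told apart. Each library is 1 animal, named here by genotype and animal number: alcohol-fed dHEP-518 and dHEP-520, then dHEP-549 and dHEP-550, followed by the chow mice dHEP-155, dHEP-164 and dHEP-165. Lists of library values follow this order. The diets differ in their ranges of animal numbers, and the sources used here give neither sex nor time of sampling, so cohort and hour of collection cannot be told apart from the diet. The alcohol libraries held 12.91 ± 0.64 M reads and the chow libraries 11.6 ± 1.65 M (SD, n = 4 and 3; M, 1000000 reads, estimated from the step between low values). Hepatocyte mRNAs were present in all 7: Alb, which encodes albumin, stood at 24253 to 55917 CPM (counts scaled so that each library sums to 1000000) on alcohol and 32395 to 39630 CPM on chow, and Apob at 18965 to 20786 CPM on alcohol, against 18512 to 19842 CPM on chow.

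Il17ra, the targeted gene, was measured at 13, 11.2, 9.23 and 11.5 CPM on alcohol, against 8.34, 10.4 and 9.98 CPM on chow, in dHEP liver. The diets overlapped, the log2 difference was 0.21, and the exact two-sided permutation test over the 7 libraries gave p = 0.23 (the smallest p that 4 against 3 allows is 0.057). FF liver held 17.6, 29.4, 18.5 and 31.0 CPM on alcohol, against 23.1, 20.2 and 14.7 CPM on chow. All 7 dHEP values lay below all 7 FF values.

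Hepatocytes make cholesterol from acetyl-CoA through the mevalonate pathway, and the genes of nearly every step are switched on by the transcription factor SREBP2 when sterol in the endoplasmic reticulum is scarce and fall silent when it is plentiful. Hepatocytes also burn fatty acids in mitochondria and peroxisomes under PPARα, store them in lipid droplets, and clear drugs and ethanol through cytochromes P450 that draw electrons from the reductase POR. The circadian clock, in which CLOCK and BMAL1 (encoded by Arntl) drive their own repressors and a set of output genes, sets the daily timing of much of this metabolism.

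Of 12651 genes tested in the 14 non-tumor libraries with limma on log2(CPM + 1), 24 were higher on alcohol in dHEP liver (0.190% of those tested) and 59 were lower (0.466%) at a Benjamini-Hochberg adjusted p below 0.05, the threshold used for every call here. In each of the 83 the libraries of the diets did not overlap, which a call made on the same libraries nearly ensures. Of all tested genes, 4.45% were without overlap in the higher and 12.9% in the lower direction. The falls were larger than the rises: the 4 deepest were Idi1, Fdps, Arntl and Cyp51, with log2 changes of −3.20 to −2.60, while the largest rises were Wee1 at 2.48, Plin4 at 1.79 and Nr1i3 at 1.40. The median log2 change over all tested genes was −0.07 on CPM as deposited and 0 after median-of-ratios scaling, with which 39 genes were higher and 37 lower. All 83 called genes kept their sign in each of 22 other fits, with an unadjusted p of at most 0.014 wherever they were tested. These fits reuse the libraries behind the calls, so kept signs and low p are no separate support. Leaving out FF libraries, changing the filter or fitting only the compared groups cannot alter the dHEP log2 change. Over all tested genes 13.1% had an unadjusted p below 0.05, the share against which such counts in gene lists are to be read. The adjusted threshold depended on single libraries: the counts of higher and lower calls were 0 and 12 without dHEP-518, 0 and 2 without dHEP-520, 6 and 9 without dHEP-549, 11 and 31 without dHEP-550, 0 and 4 without dHEP-155, 2 and 11 without dHEP-164, and 1 and 3 without dHEP-165. Among the FF libraries, which enter through the shared spread, the counts were 44 and 154 without FF-595, 14 and 29 without FF-157, and 12 and 31 without FF-159. Clock and Slc30a10 were called in all 14 fits that left out 1 library, and the other 81 each lost the call in at least 1.

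**Figure D1:**
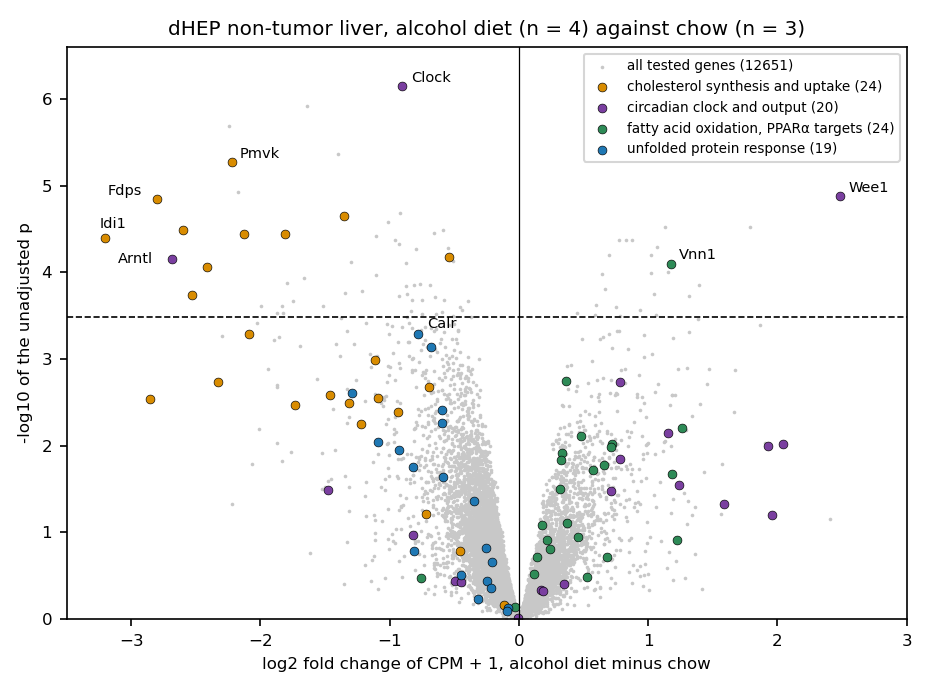
Each point is 1 of the 12651 genes tested in dHEP non-tumor liver, by log2 fold change (alcohol minus chow, x axis) and −log10 of the unadjusted p (y axis); colours mark 4 gene lists and the dashed line the p that corresponds to an adjusted p of 0.05. Cholesterol genes lie to the left, with Idi1 at −3.20, and the unfolded protein response genes lie left of 0 and under the line.

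Cholesterol genes gave the largest group of calls among the 43 lists, all of them lower on alcohol. All 24 listed genes of synthesis and uptake were tested and all 24 had a log2 change below 0. Of these 10 were called lower and 21 had an unadjusted p below 0.05. In 21 the diets did not overlap, against 12.9% of all tested genes in that direction. The median was −1.60, against −0.07 over all genes. In the order of the pathway, the called genes included Mvk, Pmvk, Mvd, Idi1 and Fdps in the mevalonate part and Cyp51, Tm7sf2, Nsdhl and Ebp in the conversion of lanosterol to cholesterol. Many of these genes carry a CCAAT box just upstream of their start, a site bound by NF-Y, the partner with which SREBP2 acts. The promoters of 4 called genes are shown, each the 200 bases before the RefSeq start (GRCm38.p6), 5′ to 3′ on the strand of the gene, with the CCAAT box or its reverse complement ATTGG in capitals: Idi1 at chr13:8885406-8885605 (plus strand), Cyp51 at chr5:4104698-4104897 (minus), Nsdhl at chrX:72918321-72918520 (plus) and Mvd at chr8:122443423-122443622 (minus).
Idi1: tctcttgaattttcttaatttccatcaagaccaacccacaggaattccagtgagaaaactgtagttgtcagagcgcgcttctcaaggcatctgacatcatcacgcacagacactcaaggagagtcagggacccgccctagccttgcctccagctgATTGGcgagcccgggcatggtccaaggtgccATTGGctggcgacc
Cyp51: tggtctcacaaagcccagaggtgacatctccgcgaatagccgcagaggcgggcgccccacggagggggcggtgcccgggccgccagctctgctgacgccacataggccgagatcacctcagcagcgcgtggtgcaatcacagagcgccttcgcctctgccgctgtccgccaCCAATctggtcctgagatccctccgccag
Nsdhl: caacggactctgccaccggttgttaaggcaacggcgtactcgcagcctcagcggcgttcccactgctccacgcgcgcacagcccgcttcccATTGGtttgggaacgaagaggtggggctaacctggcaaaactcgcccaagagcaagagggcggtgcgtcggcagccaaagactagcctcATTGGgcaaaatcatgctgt
Mvd: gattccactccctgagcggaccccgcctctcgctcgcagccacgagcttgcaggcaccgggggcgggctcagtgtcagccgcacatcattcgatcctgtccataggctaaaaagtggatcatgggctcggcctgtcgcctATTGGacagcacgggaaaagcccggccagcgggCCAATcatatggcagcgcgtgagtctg
A match to CCAAT on either strand was found in 15 of the 19 windows that RefSeq gives for 16 of the 24 list members (78.9%), and in 31.6% of the 12597 windows of tested genes. The box was not particular to this list. It was found in 82.4% of the windows of unfolded protein response genes, 57.1% of those of clock genes and 27.8% of those of fatty acid oxidation genes. The sterol response element core TCACNCCAC was found in 1 of the 19 (5.26%, Hmgcs1) and in 0.849% of the windows of tested genes. It was not particular to this list either. The core was found in 11.1% of the windows of fatty acid oxidation genes, 5.88% of those of unfolded protein response genes and 0.0% of those of clock genes. These are matches of letters, not measured binding.

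The enzymes of the mevalonate part were far apart between diets. Idi1, the isomerase that makes dimethylallyl diphosphate, read 16.9, 8.60, 14.6 and 14.1 CPM on alcohol, against 161, 85.3 and 157.4 CPM on chow (log2 change −3.20 ± 0.54 SE, adjusted p = 0.023). Every alcohol mouse was thus far below the lowest chow mouse, dHEP-164. Fdps, farnesyl diphosphate synthase, read 35.6, 20.8, 30.7 and 35.4 CPM on alcohol, against 252, 143 and 274 CPM on chow (−2.80 ± 0.43, adjusted p = 0.023). The kinase genes Pmvk and Mvk, whose products act earlier on mevalonate, were separated in the same way. Pmvk read 11.6, 7.27, 7.76 and 8.68 CPM on alcohol, against 59.0, 27.7 and 52.6 CPM on chow (−2.22 ± 0.31, adjusted p = 0.013, the smallest of the list). Mvk read 4.75, 4.07, 4.17 and 4.61 CPM on alcohol, against 24.1, 11.7 and 20.3 CPM on chow (−1.81 ± 0.30). Mvd, the decarboxylase between Pmvk and Idi1, read 1.75 to 3.19 CPM on alcohol, against 8.07 to 26.2 CPM on chow (−2.13 ± 0.36). The pathway's entry had a wider spread. Hmgcs1, which makes HMG-CoA, read 95.8, 73.1, 62.4 and 74.3 CPM on alcohol, against 650, 192 and 450 CPM on chow (−2.33 ± 0.60), without overlap but not called (adjusted p = 0.10).

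In the later steps, Cyp51, the lanosterol 14α-demethylase, read 26.7, 16.3, 29.2 and 32.8 CPM on alcohol, against 203, 111 and 178 CPM on chow (−2.60 ± 0.43, adjusted p = 0.023). Nsdhl, which removes the C4 methyl groups, read 15.4, 9.67, 8.42 and 7.83 CPM on alcohol, against 70.8, 38.3 and 69.6 CPM on chow (−2.41 ± 0.44, adjusted p = 0.030). Tm7sf2, a sterol C14 reductase, changed by −1.35 ± 0.22 and the isomerase gene Ebp by −0.54 ± 0.10, both called. Lbr, the lamin B receptor, which also has sterol C14 reductase activity and is not on the list, was called lower as well, at 9.31 to 13.1 CPM on alcohol, against 18.2 to 20.7 CPM on chow (−0.79 ± 0.14). Sqle, squalene epoxidase, had a larger difference than any of these (−2.85 ± 0.79, 2.76 to 11.8 CPM on alcohol, against 28.6 to 80.9 CPM on chow) with a wide spread, and was not called (adjusted p = 0.12).

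Among the regulators, Insig1, which holds SREBP in the endoplasmic reticulum, and Srebf2, which encodes SREBP2, were without overlap but not called, at −1.46 ± 0.40 (adjusted p = 0.12) and −0.70 ± 0.19 (adjusted p = 0.11). In 23 of the 24 genes dHEP-164 was the lowest of the chow libraries. The number called lower was 10 with all libraries, 20 with library weights, 19 when only the compared groups were fitted, 18 without FF-595, 9 after median-of-ratios scaling, 7 without dHEP-550, 5 without dHEP-164, 4 without dHEP-518, 2 without dHEP-549, and 0 without dHEP-155, dHEP-165 or dHEP-520; the median change stayed between −1.95 and −1.41 in these fits.

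**Figure D2:**
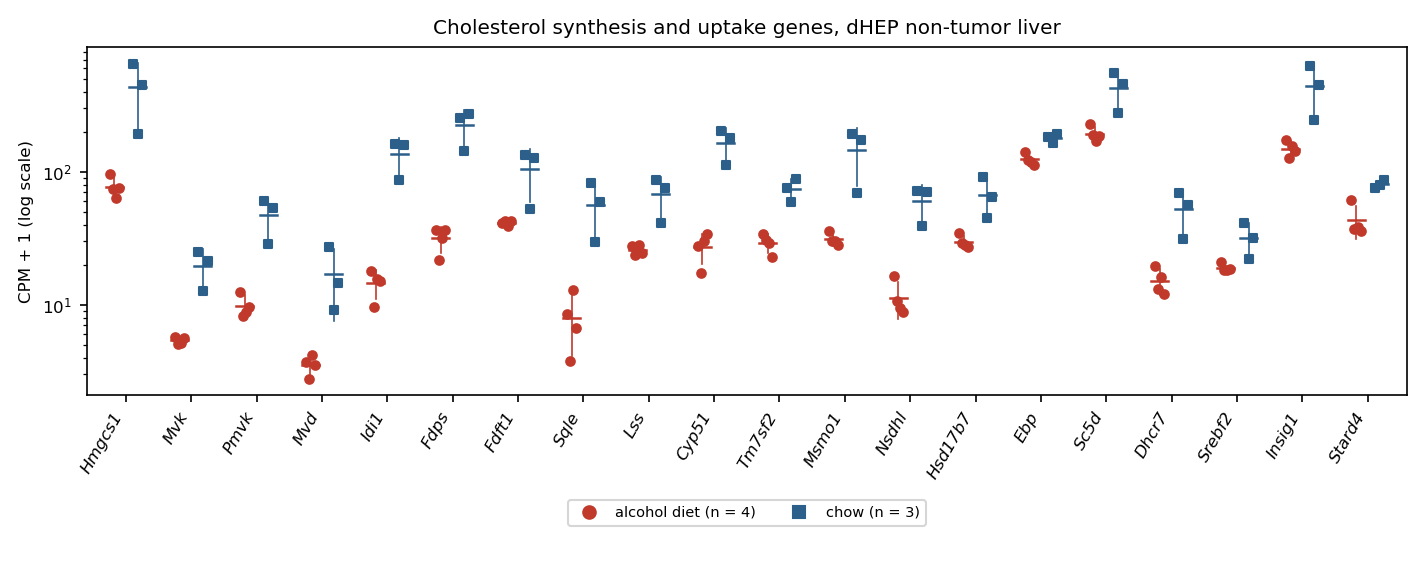
CPM + 1 (log axis) of 20 of the 24 cholesterol genes in each dHEP non-tumor library, in pathway order from Hmgcs1 to the regulators; red circles are the 4 alcohol libraries, blue squares the 3 chow libraries, horizontal bars means and vertical bars 1 SD, cut at 1. In each of the 20 genes every alcohol library lies below every chow library.

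Sterol outflow and bile acid genes were measured beside synthesis. Of 10 listed genes of cholesterol export and LXR targets none was called by limma (4 at an unadjusted p below 0.05), 5 were without overlap and higher, and the median was 0.33. Abcg5, a subunit of the transporter that moves sterol into bile, read 215, 167.5, 158.7 and 172 CPM on alcohol, against 86.1, 104 and 84.5 CPM on chow (0.95 ± 0.26, adjusted p = 0.12). Cyp7a1, the rate-limiting enzyme of classical bile acid synthesis, read 480, 613, 572 and 293 CPM on alcohol, against 164.3, 216 and 90.7 CPM on chow (1.67 ± 0.49, adjusted p = 0.15). Of 18 tested bile acid genes of 20 listed, none was called (7 at an unadjusted p below 0.05); Abcb11, the bile salt export pump, came closest at −0.54 ± 0.13 (adjusted p = 0.087). Abcb4, which moves phosphatidylcholine into bile, lies outside these lists and was called higher, with 416 to 457 CPM on alcohol, against 298 to 330 CPM on chow (0.45 ± 0.09).

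Fatty acid synthesis genes mostly overlapped between diets. Of 18 listed genes 1 was called, Acss2, the cytosolic acetyl-CoA synthetase that turns acetate into acetyl-CoA, at 105, 77.3, 59.3 and 65.6 CPM on alcohol, against 302, 138 and 329 CPM on chow (−1.66 ± 0.31, adjusted p = 0.035). Acly, ATP citrate lyase, which feeds the same pool, was without overlap at −1.28 ± 0.29 (adjusted p = 0.065). The other 16 overlapped between diets, Fasn, fatty acid synthase, at −0.98 ± 0.57 (adjusted p = 0.50) and Scd1, the stearoyl-CoA desaturase, at 0.68 ± 0.60 (adjusted p = 0.69) among them. The list median was −0.33.

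Genes of lipid storage were partly higher. Of 18 lipid droplet genes 2 were called, both higher, and 6 had an unadjusted p below 0.05. In that direction 5 were without overlap, against 4.45% of all tested genes, and the median was 0.49. Plin4, a perilipin that coats droplets, read 208, 190, 152 and 192 CPM on alcohol, against 64.9, 40.0 and 56.4 CPM on chow (1.79 ± 0.29, adjusted p = 0.023). Fitm2, an endoplasmic reticulum protein needed to form droplets, read 112, 129, 98.05 and 113 CPM on alcohol, against 56.2, 63.6 and 62.6 CPM on chow (0.88 ± 0.15, adjusted p = 0.023). Cidec, which fuses droplets, read 35.4, 35.5, 16.01 and 63.1 CPM on alcohol, against 11.6, 7.85 and 10.6 CPM on chow (1.67 ± 0.42), not called at an adjusted p of 0.087. Plin2, another perilipin gene, overlapped at −0.05 ± 0.29. Outside the list, the monoacylglycerol lipase genes Mgll (0.64 ± 0.12) and Abhd6 (0.83 ± 0.14) and the droplet-associated dehydrogenase gene Hsd17b11 (1.07 ± 0.19) were called higher. The fat cell genes Lep and Plin1 were listed at 0 in all 7 libraries and Adipoq at no more than 0.0942 CPM, while Cfd, listed with adipocytes and also made elsewhere, read 48.1, 81.3, 14.6 and 22.3 CPM on alcohol, against 10.9, 6.44 and 8.10 CPM on chow (1.90 ± 0.63, adjusted p = 0.21).

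Of the 24 fatty acid oxidation and PPARα target genes 1 was called and 12 had an unadjusted p below 0.05. Log2 changes were above 0 in 22, and 13 were without overlap and higher, against 4.45% of all tested genes. The median was 0.42, against −0.07 over all genes. The called member was Vnn1, which encodes the pantetheinase vanin-1, at 118, 141, 134 and 186 CPM on alcohol, against 78.2, 49.6 and 63.5 CPM on chow (1.17 ± 0.21, adjusted p = 0.028). Acadm, the medium-chain acyl-CoA dehydrogenase, read 383, 396, 336 and 351 CPM on alcohol, against 283, 272 and 297 CPM on chow (0.37 ± 0.09, adjusted p = 0.099). Cpt1a, which admits long-chain fatty acids to mitochondria, read 674, 695, 508 and 543 CPM on alcohol, against 410, 447 and 432 CPM on chow (0.48 ± 0.15, adjusted p = 0.20). Called genes outside the list with related roles were Pex11a, a peroxisome division protein, at 101, 104, 82.7 and 106 CPM on alcohol, against 45.7, 50.5 and 46.9 CPM on chow (1.02 ± 0.19, adjusted p = 0.033), and Eci2, a peroxisomal enoyl-CoA isomerase, at 251 to 300 CPM on alcohol, against 163 to 184 CPM on chow (0.59 ± 0.12, adjusted p = 0.047).

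In xenobiotic metabolism a regulator and the P450 reductase were called, and none of the listed P450 enzymes was. Nr1i3 encodes CAR, the nuclear receptor that senses drugs and drives Cyp2b genes; it read 465, 649, 272 and 346 CPM on alcohol, against 147, 133 and 193 CPM on chow (1.40 ± 0.27, adjusted p = 0.038). Por, the P450 reductase, read 473, 360, 424 and 315 CPM on alcohol, against 135, 209 and 188 CPM on chow (1.15 ± 0.21, adjusted p = 0.033). Cyp2b10, the classical CAR target, read 37.1, 10.2, 41.8 and 1.94 CPM on alcohol, against 27.1, 18.4 and 20.6 CPM on chow, with overlap (−0.58 ± 0.70, adjusted p = 0.79). The 22 listed genes had a median of 0.05, with 2 called higher and none lower; Cyp2c55 was nearest to a call at −2.03 ± 0.43 (adjusted p = 0.055). Cyp2c67, off the list, was called lower at 165.2, 163, 178 and 282 CPM on alcohol, against 319, 389 and 354 CPM on chow (−0.88 ± 0.17, adjusted p = 0.038). The Cyp2c genes are near-identical copies, and how their shared reads were divided was not examined. Cyp2e1, the ethanol-oxidising P450, read 8239, 9517, 7463 and 8409 CPM on alcohol, against 5441, 6444 and 6509 CPM on chow, without overlap and not called (0.45 ± 0.16, adjusted p = 0.24). Adh1, the main alcohol dehydrogenase gene, overlapped at −0.05 ± 0.21. Of 12 tested ethanol and acetaldehyde genes the called one was Acss2.

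Of 17 genes of the urea cycle and amino acid breakdown none was called (6 at an unadjusted p below 0.05, 5 without overlap and lower, median −0.25), and serine synthesis and one-carbon genes had 1 call of 15, Cbs. Cbs and Cth, the enzymes that convert homocysteine through cystathionine to cysteine, were both called: Cbs read 337, 250, 308 and 305 CPM on alcohol, against 576, 598 and 478 CPM on chow (−0.87 ± 0.16, adjusted p = 0.028), and Cth changed by −1.21 ± 0.24 (adjusted p = 0.042). Agxt, the glyoxylate aminotransferase, read 129, 102, 104 and 72.0 CPM on alcohol, against 279, 213 and 254 CPM on chow (−1.30 ± 0.23, adjusted p = 0.028). Gcat, in threonine breakdown (−0.65 ± 0.11), Kynu, in tryptophan breakdown (−0.96 ± 0.16), the threonyl-tRNA synthetase gene Tars (−0.92 ± 0.15) and the purine synthesis gene Paics (−0.51 ± 0.11) were also called lower. Apart from Cbs these genes are on neither list. In the other direction, Nampt, the rate-limiting enzyme of NAD salvage, read 123, 129, 129 and 121 CPM on alcohol, against 67.3, 60 and 56.6 CPM on chow (1.02 ± 0.18, adjusted p = 0.027), and Pdxk, which phosphorylates vitamin B6, changed by 0.94 ± 0.19.

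The unfolded protein response raises chaperones of the endoplasmic reticulum when unfolded proteins build up there. All 19 tested members of its list had log2 changes below 0 and 9 were without overlap, with a median of −0.59; none was called by limma (10 at an unadjusted p below 0.05; smallest adjusted p 0.058). The number called lower was 8 with library weights, 2 when only the compared groups were fitted, 5 without FF-595 and at most 1 without any other single library. Calr, calreticulin, read 426, 457, 522 and 655 CPM on alcohol, against 847, 946 and 827 CPM on chow (−0.78 ± 0.17, adjusted p = 0.058). Hspa5, the chaperone BiP, read 476, 376, 645 and 722 CPM on alcohol, against 971, 1387 and 795 CPM on chow (−0.93 ± 0.32, adjusted p = 0.23). Pdia6, a disulfide isomerase, changed by −0.68 ± 0.16 (adjusted p = 0.068). Ddit3, which encodes the stress-induced factor CHOP (−0.08 ± 0.24), and Atf4, another transcription factor of the response (−0.21 ± 0.16), overlapped between diets. Called genes outside the list whose products work in or near this compartment were picked after their values were seen and lay on both sides, with Fitm2 (0.88) and Por (1.15) higher. Among the lower ones, Rpn1, of the oligosaccharyltransferase, read 74.1, 80.5, 92.2 and 105 CPM on alcohol, against 154, 153 and 137 CPM on chow (−0.75 ± 0.15, adjusted p = 0.044). The calcium pump gene Atp2a2 (−0.69 ± 0.13), Selenok (−0.51 ± 0.09), the degradation factor Derl2 (−0.44 ± 0.09), the BiP nucleotide exchange factor Sil1 (−0.37 ± 0.08) and Copz1, of the vesicle coat COPI (−0.39 ± 0.08), were called too. Among 20 genes of acute phase proteins, which the liver secretes in inflammation, none was called (5 at an unadjusted p below 0.05). Socs3, a feedback inhibitor of cytokine signalling on that list, was nearest at −1.94 ± 0.48 (adjusted p = 0.087).

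The 200 bases upstream of Hspa5 (chr2:34771890-34772089, plus strand) and Calr (chr8:84846932-84847131, minus strand), RefSeq on GRCm38.p6, are shown because these chaperone genes carry the endoplasmic reticulum stress element, CCAAT and CCACG separated by 9 bases, to which ATF6 and XBP1 bind with NF-Y. The capitals mark that element, in Calr on the opposite strand.
Hspa5: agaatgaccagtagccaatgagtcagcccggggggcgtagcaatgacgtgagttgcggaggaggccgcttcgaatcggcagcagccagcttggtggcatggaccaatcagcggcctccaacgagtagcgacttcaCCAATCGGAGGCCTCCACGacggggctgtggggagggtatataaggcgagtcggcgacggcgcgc
Calr: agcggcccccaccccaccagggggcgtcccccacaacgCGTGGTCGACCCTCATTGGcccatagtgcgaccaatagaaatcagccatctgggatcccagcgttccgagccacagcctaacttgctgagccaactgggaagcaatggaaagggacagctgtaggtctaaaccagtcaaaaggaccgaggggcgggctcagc
The element was searched on both strands. It was found in 6 of the 17 windows of list members (35.3%: Calr, Creld2, Dnajc3, Hsp90b1, Hspa5 and Pdia6) and in 0.111% of the windows of tested genes. Its CCAAT part is counted in the CCAAT matches as well. The 6 genes had log2 changes of −0.93 to −0.25 between diets, and Creld2 and Dnajc3 overlapped.

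Genes of the circadian clock lay on both sides of the diet comparison. Of 20 clock and output genes 1 was called higher and 2 lower (12 at an unadjusted p below 0.05). Clock read 56.4, 58.2, 59.9 and 64.1 CPM on alcohol, against 121, 116 and 101 CPM on chow (−0.90 ± 0.11, adjusted p = 0.0077), with a gap between groups wider than either group's range. Arntl, which encodes BMAL1, the partner of CLOCK, read 2.06, 2.18, 1.06 and 1.31 CPM on alcohol, against 38.4, 10.2 and 9.70 CPM on chow (−2.69 ± 0.48, adjusted p = 0.028). Wee1, a mitotic inhibitor kinase whose gene the clock drives, read 17.8, 16.6, 12.2 and 12.0 CPM on alcohol, against 0.844, 2.30 and 2.45 CPM on chow (2.48 ± 0.38, adjusted p = 0.023). Other output genes lay on the side of Wee1 without a call: Per2, a repressor of CLOCK and BMAL1, at 1.15 ± 0.37 (adjusted p = 0.19), Usp2 at 2.04 ± 0.68 and Per3 at 1.93 ± 0.65 (both adjusted p = 0.21). The chow mouse dHEP-155 stood apart from the other chow mice in these genes. Dbp, a clock-driven transcription factor, read 42.8 to 93.0 CPM on alcohol, and on chow 1.56 CPM in dHEP-155 and 39.9 and 56.5 CPM in the other mice. Npas2, a substitute for CLOCK, read at most 0.317 CPM on alcohol, and on chow 10.9 CPM in dHEP-155 and 0.593 and 0.753 CPM in the other mice. Without dHEP-155 and its FF counterpart FF-158, a choice made after seeing the data, Clock changed by −0.85 (adjusted p = 0.041), Arntl by −2.07 (adjusted p = 0.079) and Wee1 by 2.19 (adjusted p = 0.11). The same genes set FF-158 apart among the FF chow mice, with Dbp at 1.22 CPM against 22.2 and 26.9 CPM. An E-box, CACGTG, lay in 6 of the 21 upstream windows of 16 list members (28.6%) and in 7.16% of those of tested genes. It also lay in 21.1% of the windows of cholesterol genes. The 6 windows belonged to 5 genes. Clock and Arntl had no match in their windows, and Wee1 had no window.

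**Figure D3:**
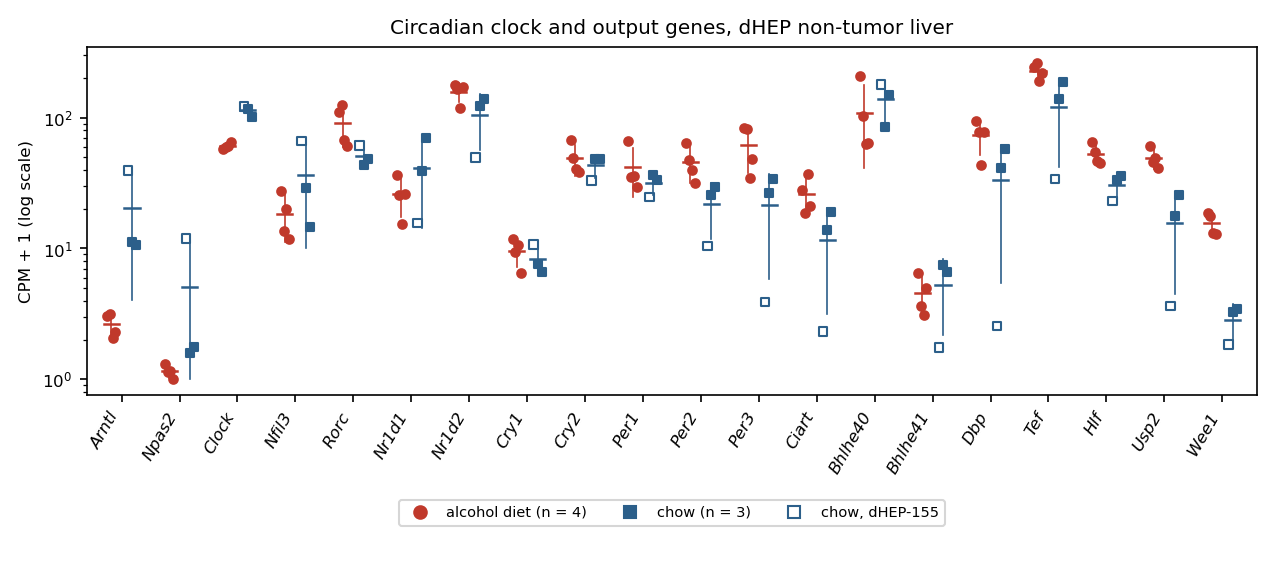
CPM + 1 (log axis) of 20 clock and output genes in each dHEP non-tumor library; red circles are the 4 alcohol libraries and blue squares the 3 chow libraries, the open square being dHEP-155; horizontal bars are means and vertical bars 1 SD, cut at 1. Clock, Arntl and Wee1 separate the diets in every library, and for Dbp, Per3, Usp2 and Ciart the open square is the lowest value.

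Several called genes belong to none of these groups. Slc30a10, a manganese exporter, read 20.8, 15.8, 20.2 and 21.7 CPM on alcohol, against 89.3, 54.5 and 50.8 CPM on chow (−1.64 ± 0.20, adjusted p = 0.0077). Adgrf1, an adhesion G protein-coupled receptor, read 1.11, 1.09, 1.80 and 2.23 CPM on alcohol, against 7.12, 12.1 and 14.9 CPM on chow (−2.24 ± 0.29, adjusted p = 0.0086). Avpr1a, the liver vasopressin receptor, read 3.88, 6.69, 7.68 and 9.52 CPM on alcohol, against 29.8, 25.6 and 21.7 CPM on chow (−1.79 ± 0.34, adjusted p = 0.038). The retinol dehydrogenase gene Rdh11 (−2.18 ± 0.33), Fam198a (−1.84 ± 0.37) and the aldolase gene Aldoc (−1.82 ± 0.38) were also among the 15 deepest falls. Among the 15 largest rises were Fam102a (1.13 ± 0.19), Bmp7, a secreted growth factor (1.06 ± 0.22), Map2k3, a kinase upstream of p38 (0.78 ± 0.16), and Gna12, a G protein subunit (0.78 ± 0.13). Slc1a2, a glutamate transporter of hepatocytes around the central vein, read 569, 594, 550 and 491 CPM on alcohol, against 288, 390 and 344 CPM on chow (0.70 ± 0.12, adjusted p = 0.027), the called member of 11 pericentral genes.

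Genes linked to interleukin-17 and to other liver cells gave no calls. Of 12 tested interleukin-17 target genes none was called (0 at an unadjusted p below 0.05). Lcn2, lipocalin-2, read 26.1, 24.95, 47.8 and 19.97 CPM on alcohol, against 32.7, 9.999 and 7.06 CPM on chow (1.02 ± 0.60, adjusted p = 0.51). None of the 6 tested receptor pathway genes was called (0 at an unadjusted p below 0.05). None of the 12 Kupffer cell markers was called (0 at an unadjusted p below 0.05), their median was 0.08, and their sum was 549.02 to 899.3 CPM on alcohol, against 570.7 to 802.6 CPM on chow. The 18 tested stellate cell and fibrosis genes had a median of −0.06, with 2 without overlap and higher. The 12 endothelial markers had 6 members without overlap and lower, 1 at an unadjusted p below 0.05, and a median of −0.34. They summed to 441.7 to 653.8 CPM on alcohol, against 643.4 to 726.3 CPM on chow. Of 24 cytosolic ribosomal protein genes 9 were without overlap and lower, and 4 had an unadjusted p below 0.05. Their sum was 2946 to 4067 CPM on alcohol, against 4104 to 4387 CPM on chow. The part of the endothelial and ribosomal levels in the falls described above was not tested. The 13 tested tumor and oncofetal markers had no member without overlap, and Afp, alpha-fetoprotein, read 2.25 to 3.09 CPM on alcohol, against 1.41 to 6.00 CPM on chow.

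The same diets in FF liver gave 32 genes higher (0.253%) and 41 lower (0.324%) on alcohol. The dHEP and FF comparisons share no library, although their fit shares its estimate of spread. Of the called genes 18 were called in both genotypes, all in the same direction, which is 21.7% of the dHEP calls and 24.7% of the FF calls. The 5 higher in both were Wee1, Plin4, Vnn1, Fam102a and Pmm1, and the 13 lower in both included Clock, Slc30a10, Tm7sf2, Agxt, Cth, Cbs, Gcat and Avpr1a. Of the 83 dHEP calls 78 had the same sign in FF, while the share of same signs over all tested genes was not counted. The other 5 were Nr1i3, Slc1a2, Npr2, Eci2 and Fat1, with log2 changes in FF of −0.33 to 0.13.

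**Figure D4:**
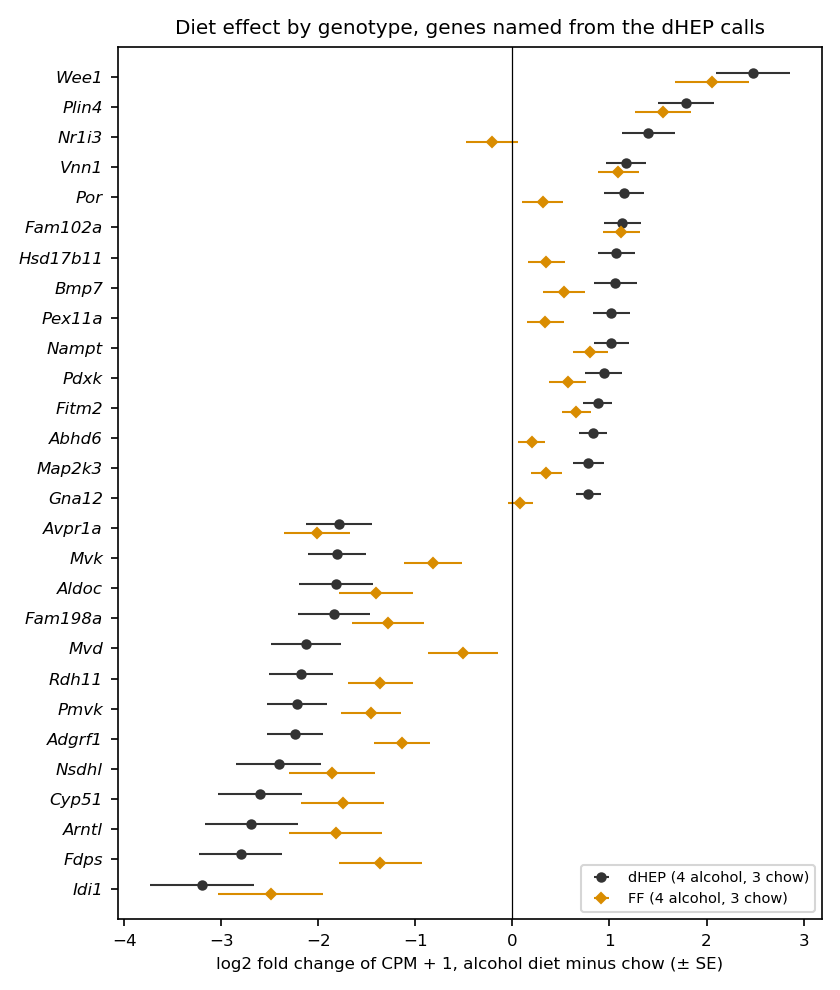
Log2 fold change of CPM + 1 (alcohol minus chow, x axis, ± SE) of 28 genes named from the dHEP calls, in dHEP (black circles) and FF (orange diamonds), each from 4 alcohol and 3 chow libraries. Plin4 and Wee1 lie close together in both genotypes, while Nr1i3 is 1.40 in dHEP and −0.21 in FF.

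The difference between genotypes in the diet effect was tested directly, and no gene passed (0.00% of 12651; smallest adjusted p 0.206; 870 genes, 6.88%, at an unadjusted p below 0.05). Per gene, the values below are therefore a description of the leading differences, none of which was called. Slc1a2 was higher on alcohol in dHEP and read 441, 428, 342 and 432 CPM on alcohol, against 557, 488 and 504 CPM on chow in FF (difference of log2 changes, dHEP minus FF, 1.03 ± 0.18, adjusted p = 0.21). Cyp4a32, a fatty acid hydroxylase gene, read 36.3, 33.7, 28.2 and 36.9 CPM on alcohol, against 20.8, 14.5 and 20.1 CPM on chow in dHEP, and 18.0, 22.6, 30.0 and 23.9 CPM on alcohol, against 40.6, 30.9 and 53.9 CPM on chow in FF (1.63 ± 0.28, adjusted p = 0.21). For Cyp4a32 the diets were thus apart in opposite directions in the 2 genotypes, with no overlap in either, although the FF gap ran only from 30.0 to 30.9 CPM. Lgals4, a galectin, was also apart in opposite directions without overlap (1.77 ± 0.31, adjusted p = 0.21). It read 8.09 to 15.6 CPM on alcohol, against 4.96 to 6.84 CPM on chow in dHEP. In FF it read 6.6 to 10.2 CPM on alcohol, against 15.3 to 19.2 CPM on chow. Angptl4, a lipoprotein lipase inhibitor and PPAR target, differed by 1.53 ± 0.31 (adjusted p = 0.36) and Npr2, a natriuretic peptide receptor, by 0.88 ± 0.18 (adjusted p = 0.36). In the other direction, Osmr, the oncostatin M receptor, read 6.97, 8.07, 7.93 and 11.6 CPM on alcohol, against 12.1, 13.9 and 12.3 CPM on chow in dHEP, and 10.4, 15.4, 13.6 and 15.6 CPM on alcohol, against 7.63, 7.70 and 7.23 CPM on chow in FF (−1.31 ± 0.23, adjusted p = 0.21). P4ha1, a collagen prolyl hydroxylase (−1.29 ± 0.25), the cadherin gene Fat1 (−0.72 ± 0.14), the sialic acid synthase gene Nans (−0.89 ± 0.19) and Vcl, vinculin (−0.70 ± 0.14), followed, at adjusted p of 0.33 to 0.36.

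No list held a called difference between genotypes. The unfolded protein response genes had a median diet effect of −0.59 in dHEP and 0.14 in FF. The difference was below 0 in all 19, and 9 had an unadjusted p below 0.05 (smallest adjusted p 0.61), among them Pdia6 at −0.79 and Hspa5 at −1.30. In FF, Hspa5 read 750, 712, 631 and 1708 CPM on alcohol, against 574, 731 and 726 CPM on chow, and the library FF-595 stood apart in it. The FF median was −0.01 without FF-595 and 0.22 to 0.23 without FF-503, FF-523 or FF-581. Without FF-595 the median difference of the list was −0.51, and over the fits without 1 library it ran from −0.78 to −0.51. The fatty acid oxidation and PPARα genes had a median of 0.42 in dHEP and 0.00 in FF, with 23 of 24 differences above 0 and 8 at an unadjusted p below 0.05 (smallest adjusted p 0.36); over the fits without 1 library the median difference of 0.32 ran from 0.21 (without FF-158) to 0.44. Cyp4a10, a fatty acid hydroxylase gene, changed by 1.18 in dHEP and by −1.17 in FF, with the FF chow mice at 530, 1329 and 553 CPM. How reads shared between Cyp4a10 and Cyp4a32 were divided was not examined, so they may not be separate cases. The cholesterol genes had medians of −1.60 in dHEP and −0.89 in FF, with all 24 differences below 0, a median difference of −0.68 and 4 at an unadjusted p below 0.05 (smallest adjusted p 0.69). Single libraries moved that difference, which was −1.03 without FF-595 (15 genes at an unadjusted p below 0.05), −0.43 without dHEP-155 and −0.35 without FF-581. Without FF-523 and FF-581, a choice made after seeing the data, the cholesterol median in FF was −1.48 and the median difference 0.02. The corresponding differences without these libraries were −0.80 for the unfolded protein response genes and 0.56 for the oxidation genes. Clock genes had medians of 0.53 in dHEP, which was 0.32 without dHEP-155, and 0.50 in FF, which was 0.31 without FF-158. Lipid droplet genes had medians of 0.49 in dHEP, which was 0.32 without dHEP-164, and 0.60 in FF. Other lists differed as much: the median difference was −0.66 in the unfolded protein response genes and also −0.66 in 18 fatty acid synthesis genes. Of the latter 15 were below 0 and 3 had an unadjusted p below 0.05. Their median difference was −1.1 without FF-595 (14 genes at an unadjusted p below 0.05) and −0.33 without FF-523 and FF-581. In 22 xenobiotic genes it was 0.64, with 18 above 0 and 6 at an unadjusted p below 0.05. The median difference over all genes was −0.08.

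**Figure D5:**
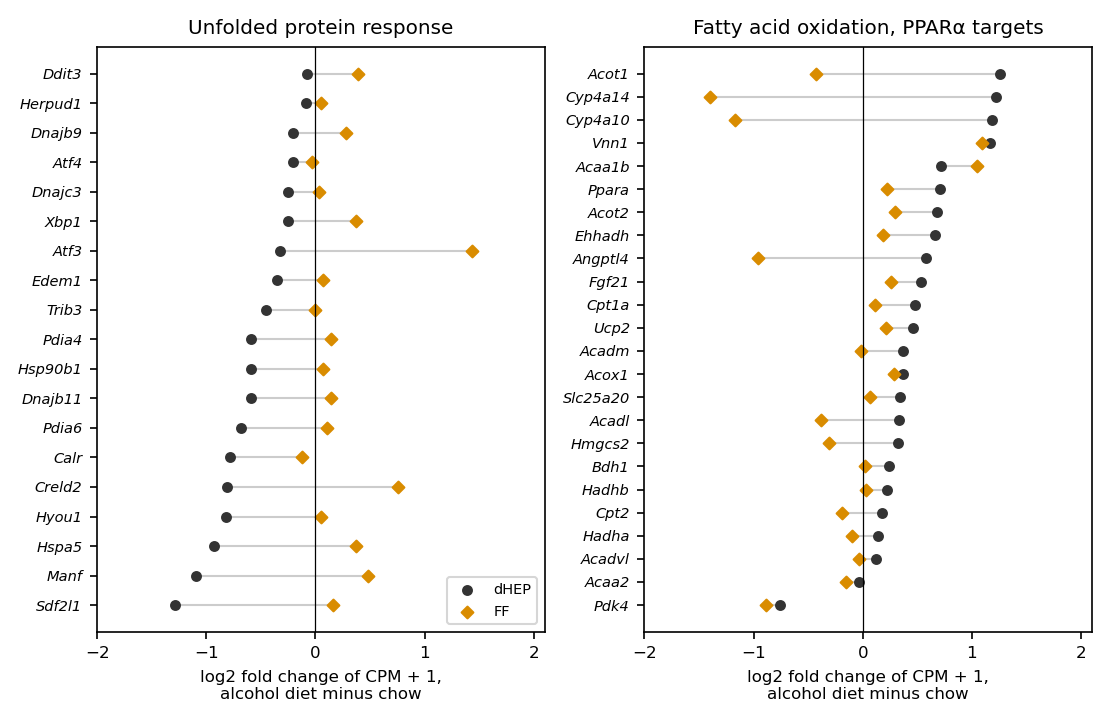
Log2 fold change (alcohol minus chow, x axis) of each tested unfolded protein response gene (left, 19 genes) and fatty acid oxidation or PPARα target gene (right, 24 genes), in dHEP (black circles) and FF (orange diamonds), joined by a line per gene. In the left panel every circle lies left of its diamond, and in the right panel 23 of 24 circles lie right of theirs.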

How the data were processed

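Bulk RNA from mouse liver was sequenced from a stranded total RNA kit, per the labels' protocols, although the labels name polyA RNA as the molecule. The authors deposited gene-level CPM, per the file headers, for 22187 genes, and per the submitters' processing notes they used STAR 2.5.1a and RSEM 1.3.0 with GRCm38. Each CPM column summed to 1000000. Between 84.9% and 87.0% of values up to 20 reads were whole to within 0.1 read. No count model was fitted, because the values were deposited as CPM. Depth over the 14 non-tumor libraries was 9.57 to 16.88 M reads, and more reads give lower counting error in scarce genes. Symbols came from GENCODE for 21653 gene IDs; the other 534 have none.

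Log2(CPM + 1) was fitted with limma 3.58.1 (R 4.3.3, empirical Bayes with a mean trend) to 4 groups of non-tumor liver, 2 genotypes by 2 diets, in genes with at least 1 CPM in at least 3 libraries, and p-values were adjusted by the Benjamini-Hochberg method over all 12651 genes. A fold change on this scale understates that of scarce genes. An SE comes from this fit. Labels do not say that libraries of a group came from separate litters, so p-values measure the spread between these animals. The code was tested on simulated data. Tables and exact tests used numpy 2.4.6, pandas 2.3.3 and scipy 1.17.1. Alternatives were library weights, a fit to the compared groups only, scaling by the median of ratios, a filter on a mean of 5 CPM or none, a pseudocount of 0.5, and leaving out each library.

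Genes were named by rule: the 15 largest called rises and falls with at least 5 CPM in the higher group and no overlap, up to 5 members of smallest p in each of 43 lists, and the 5 leading differences between genotypes in each direction. Other called genes and list members were named after their values were seen. Some genes that these rules name are not reported here, although list counts and medians include them. The lists and the comparison were chosen with earlier results of these data known, and list counts are descriptions. Lists not described in the text are given by count in the closing section. Promoter windows came from RefSeq on GRCm38.p6 and cover 200 bases before each start.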

Additional observations from a re-analysis of the deposited data

Results flagged for a closer look

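In 3 of the 84 genes examined for an outlying animal (the 83 called genes and Il17ra), 1 of the 4 alcohol libraries lay apart: its gap to the nearest library, divided by the range of the 4, was above Dixon's 95% critical value. Chance gives such a gap in about 1 of 20 groups. Gcat was 51.2 CPM in dHEP-518, with 45.0 CPM in the next library and 44.2 CPM in the lowest (ratio 0.89). Hsd17b11 was 143 CPM in dHEP-518, with 104 CPM next and 101 CPM lowest (ratio 0.94). Cyp2c67 was 282 CPM in dHEP-550, with 178 CPM next and 163 CPM lowest (ratio 0.87).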

How the results depend on the processing

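The genes called higher and lower on alcohol were 0.190% and 0.466% of those tested. They were 0.111% and 0.217% without a filter, 0.308% and 0.292% with median-of-ratios scaling, 1.3% and 3.19% with library weights, and 0.465% and 1.14% when only the compared groups were fitted. With each library left out in turn they ran from 0.00% to 0.348% higher and from 0.0158% to 1.22% lower. Without dHEP-155 and FF-158, a choice made after the data were seen, they were 0.00% and 0.0478%, and 4 of the 6 genes left were among the 83. The difference between genotypes gave 0 calls in every alternative with FF, with 553 to 1998 genes at an unadjusted p below 0.05. The log2 difference of Il17ra was 0.12 to 0.29 over the alternatives. No named gene's called change turned sign, in fits that reuse the libraries behind the calls. The causes of these shifts were not tested. No paired analysis was possible because the alcohol and chow mice carry different animal numbers, so no block of replicate numbers can be formed. Depth of 10.62 to 13.75 M reads in the dHEP libraries limits the precision of genes near 1 CPM.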

Other observations

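Several genes outside the groups described so far separated the diets without a call. Gys2, the liver glycogen synthase, read 328, 322, 250 and 255 CPM on alcohol, against 129, 179 and 195 CPM on chow (log2 change 0.79 ± 0.20, limma adjusted p = 0.087). Ppp1r3b, which brings a phosphatase to glycogen, lay the other way at 103 to 212 CPM on alcohol, against 249 to 330 CPM on chow (−0.77 ± 0.23, adjusted p = 0.15). Bmp6, an inducer of hepcidin that endothelial cells make, read 2.06, 2.55, 2.29 and 2.69 CPM on alcohol, against 4.97, 4.15 and 3.58 CPM on chow (−0.62 ± 0.16, adjusted p = 0.096). It was 1 of 5 members of the 11 tested iron genes without overlap, 3 higher and 2 lower. Ccne1, cyclin E1, read 3.01, 1.82, 2.61 and 3.07 CPM on alcohol, against 0.281, 0.815 and 1.13 CPM on chow (1.08 ± 0.28, adjusted p = 0.10), while the 20 cell cycle genes had a median of −0.08. Elovl3, a fatty acid elongase that is higher in male mouse liver, read 64.1, 62.0, 94.9 and 99.7 CPM on alcohol, against 598, 268 and 311 CPM on chow (−2.22 ± 1.01, adjusted p = 0.37). Its list of 12 male-biased genes had a median of −0.41 and the 7 tested female-biased genes a median of 0.37, none called. The male-biased genes summed to 12953 to 36177 CPM on alcohol, against 13503 to 24903 CPM on chow, in dHEP. In FF they summed to 8463 to 36236 CPM on alcohol, against 782.3 to 21047 CPM on chow. The female-biased sums were at most 253 CPM in dHEP, but reached 1105 CPM on alcohol and 2228 CPM on chow in FF. The part of this spread in the comparison with FF was not tested.

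No gene was called in the other lists, whose medians were −0.13 in 18 glycolysis and gluconeogenesis genes, −0.13 in 13 glucocorticoid and fasting targets, −0.03 in 14 p53 targets, −0.09 in 20 interferon response genes, −0.01 in 18 NRF2 and glutathione genes, −0.19 in 11 iron genes, −0.05 in 12 hepatocyte transcription factors, −0.11 in 10 growth hormone axis genes and −0.07 in 24 respiratory chain genes. Among cell type lists, the medians were −0.18 in 14 hepatocyte secreted proteins (6 lower without overlap), −0.10 in 5 biliary genes, 0.14 in 11 monocyte genes, −0.20 in 3 neutrophil genes, −0.21 in 3 T and NK cell genes, −0.36 in 4 B and plasma cell genes, −0.05 in 7 MHC class II genes, −0.33 in 5 red blood cell genes and 1.06 in 4 adipocyte genes. Of 10 pancreas genes Cela1 was the tested one, at −0.72 ± 0.26. By limma 0 to 4 genes of each of these lists had an unadjusted p below 0.05.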
